A study of Mus musculus with 11 samples.

Results

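The proximal tubule solute carriers and enzymes examined here are 44 listed genes, picked by symbol. The list was chosen with earlier results of these data known, so shares of its members set against all probes are a description. Every probe whose platform symbol equals a listed gene was taken, and a probe was kept where its detection p was under 0.05 on at least 3 arrays. Of the 44 genes, 42 had a probe and 38 had a kept probe, among 12179 genes kept on the arrays as a whole. These 38 genes had 62 kept probes, and each gene is described by its probe with the highest mean log2 intensity.

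Kidney RNA of 11 female mice was hybridised to Illumina bead arrays, 1 array for each mouse: 4 mice were Cldn16 -/- (KO), 3 were Cldn16 +/- (Het) and 4 were Cldn16 +/+ (WT). Cldn16 encodes claudin-16, which lines the paracellular route for magnesium and calcium in the thick ascending limb, downstream of the proximal tubule. All mice were 8 weeks old, ate a standard diet after weaning and were of mixed background: 129S7/SvEvBrd-Hprtb-m2, listed as F2, with 1 backcross to C57BL/6N. The kidneys were used whole apart from their poles, so fewer proximal cells and less RNA per proximal cell cannot be told apart in any value below. The Cldn16 probe read 9.35, 8.59, 8.86 and 9.15 log2 units in KO kidneys, 9.28, 9.38 and 9.37 in Het kidneys, and 9.61, 9.17, 9.68 and 9.59 in WT kidneys. The KO and WT arrays overlapped at this probe (log2 difference -0.53, limma adjusted p = 0.227). Its position relative to the targeted exons was not analysed here, so it does not check the labels.

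The proximal tubule takes back most of the filtered glucose, amino acids, bicarbonate and organic acids. Sodium-coupled carriers in the brush border bring solutes into the cell, partner carriers in the basolateral membrane pass them to the blood, and organic anion and cation carriers move drugs and metabolites the other way. The convoluted early part and the straight late part of the tubule use different members of the same families, such as the glucose carriers Slc5a2 (SGLT2) early and Slc5a1 (SGLT1) late. In mice the late part also differs between the sexes.

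HNF1 factors, homeodomain proteins that bind palindromic sites, are textbook regulators of proximal carriers, so the 250 bases before the start of each member gene were searched for the half-site GTTAAT, with no mismatch, on either strand. The sequences are RefSeq's for build GRCm38.p6. Windows were at hand for 37 of the 44 genes, some with several starts, and 7 of the 49 windows (14.3%) held the half-site, against 2113 of all 32851 windows (6.43%). The half-site was chosen after longer forms of the site had been searched, so the shares are a description. The genes with a match were Miox, Pck1, Slc22a6, Slc22a8, Slc6a13, Slc6a20a and Slc7a7. The windows shown are those of the 4 members with a window whose KO and WT arrays did not overlap, the readings described further on. Capitals mark the half-site, and each run ends at the base before the start.
Slc16a9 (chr10:70245026-70245275, plus strand): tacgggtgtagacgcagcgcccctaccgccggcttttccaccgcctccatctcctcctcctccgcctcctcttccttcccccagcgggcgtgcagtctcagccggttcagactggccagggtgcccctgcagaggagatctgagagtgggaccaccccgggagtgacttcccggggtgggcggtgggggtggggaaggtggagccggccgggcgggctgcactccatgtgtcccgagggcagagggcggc
Slc22a13 (chr9:119209106-119209355, minus strand): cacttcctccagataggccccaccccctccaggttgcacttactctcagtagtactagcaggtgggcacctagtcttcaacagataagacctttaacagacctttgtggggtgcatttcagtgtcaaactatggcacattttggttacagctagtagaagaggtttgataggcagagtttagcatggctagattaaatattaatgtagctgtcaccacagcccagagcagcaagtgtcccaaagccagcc
Slc5a1 (chr5:33103969-33104218, plus strand): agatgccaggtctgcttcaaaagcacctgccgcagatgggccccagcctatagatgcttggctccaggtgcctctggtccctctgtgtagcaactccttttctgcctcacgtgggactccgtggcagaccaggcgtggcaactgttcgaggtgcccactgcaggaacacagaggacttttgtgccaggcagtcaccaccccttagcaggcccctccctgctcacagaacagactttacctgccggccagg
Miox (chr15:89334223-89334472, plus strand): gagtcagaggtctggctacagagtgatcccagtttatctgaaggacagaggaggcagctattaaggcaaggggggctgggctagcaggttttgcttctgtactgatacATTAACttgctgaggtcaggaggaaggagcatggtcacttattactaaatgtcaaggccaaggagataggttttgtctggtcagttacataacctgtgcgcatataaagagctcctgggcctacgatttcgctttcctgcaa
The letters stand in the Miox window, on the minus strand, beginning 142 bases before the start. They are not in the windows of Slc16a9, Slc22a13 and Slc5a1.

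Most of the list was detected in these kidneys. Of the 42 listed genes with a probe, 36 were detected at a detection p under 0.01 on all 11 arrays. These are 36 of the 38 kept genes, which had already passed a detection filter. The exceptions were Slc6a20a, an imino acid carrier detected on 3 KO, 2 Het and 2 WT arrays, and Slc7a13, a late carrier of acidic amino acids and cystine that was detected on 1 WT array and on no KO or Het array. No probe of Slc17a1, Slc23a1, Slco1a1 or Slco1a6 reached a detection p under 0.05 on any array. Slco1a1 and Slc7a13 are known for high levels in the kidneys of male mice, and every mouse here was female. Slc3a1 and Ggt1 were not analysed here.

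None of the 38 genes passed the test between KO and WT kidneys (limma, Benjamini-Hochberg over 22856 probes, adjusted p under 0.05), where 9 probes of all those tested did (0.0394%). At an unadjusted p under 0.05 there were 6 of the 38, of which 1 was higher (all probes 6.72%) and 5 were lower in KO kidneys (all probes 6.17%). That is 15.8% of the members, near the 12.9% of all probes tested. The members were split evenly, with 19 higher and 19 lower in KO kidneys and a median log2 difference of 0.00, against a median of 0.00 over all probes. Their median absolute difference was 0.14 and that of all probes 0.13. In 5 members (13.2%) the KO and WT arrays did not overlap, against 7.13% of all probes: Slc5a1, Slc22a13 and Miox lay higher (all probes 3.68%) and Slc13a1 and Slc16a9 lower in KO kidneys (all probes 3.45%).

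The comparison also bounds what could have been missed at the 1 probe that describes each gene. At that probe the 95% interval of the KO minus WT difference, taken for each gene alone, lay inside 1 log2 unit for all 38 members. A unit is a 2-fold change, in either direction. For 18 of the 38 members the interval lay inside 0.5 log2 units. The half-width of the interval had a median of 0.30 and reached 0.85 in Pck1, the least precise member. No interval was taken for further probes, so these bounds do not cover them. A second Slc7a7 probe, detected on all 11 arrays, gave 0.50 (SE 0.25). For Slc7a13 and Slc6a20a, read close to background, the interval bounds the reading and not the level.

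**Figure D1:**
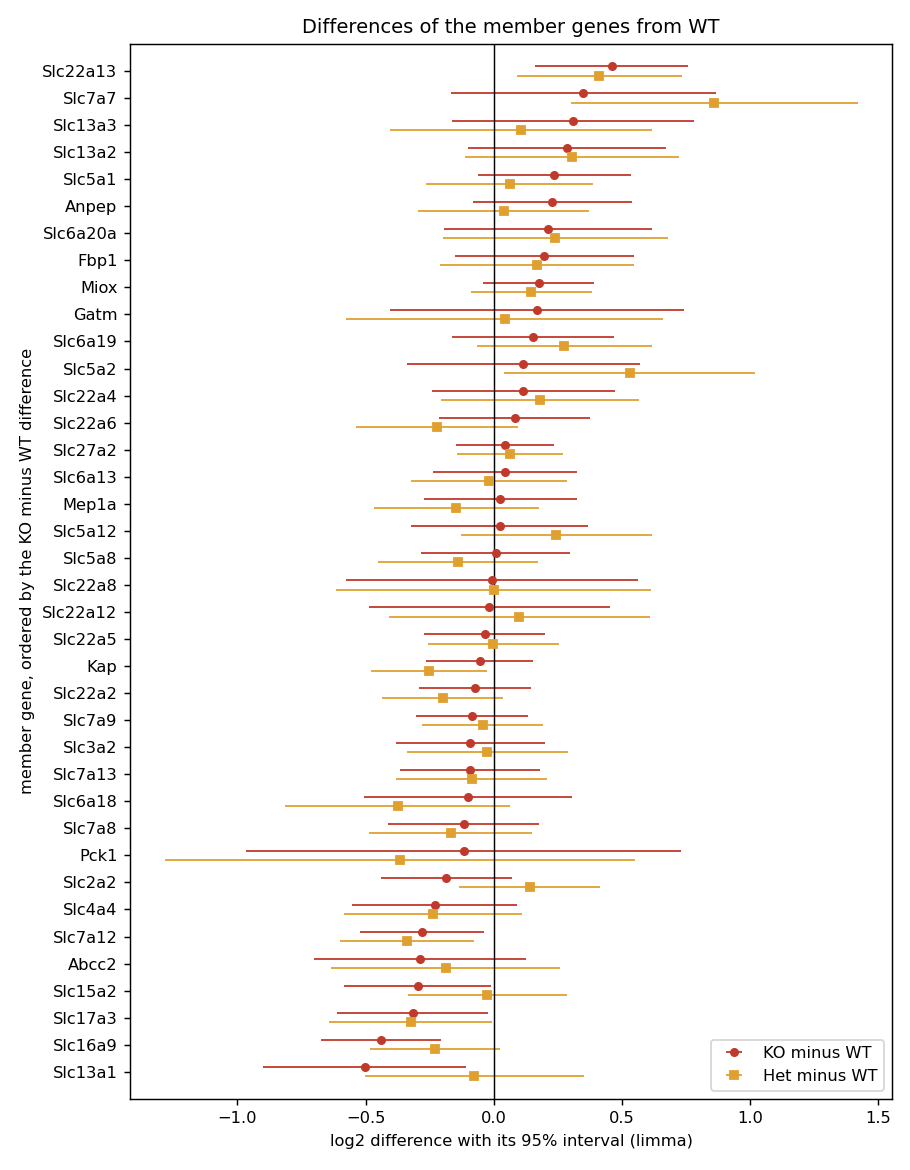
Log2 difference from WT of the 38 member genes (horizontal axis), ordered by the KO minus WT difference, for KO kidneys (circles) and Het kidneys (squares) with the 95% interval of each gene alone. The KO differences run between -0.50 in Slc13a1 and 0.46 in Slc22a13, and the widest intervals belong to Pck1.

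**Figure D2:**
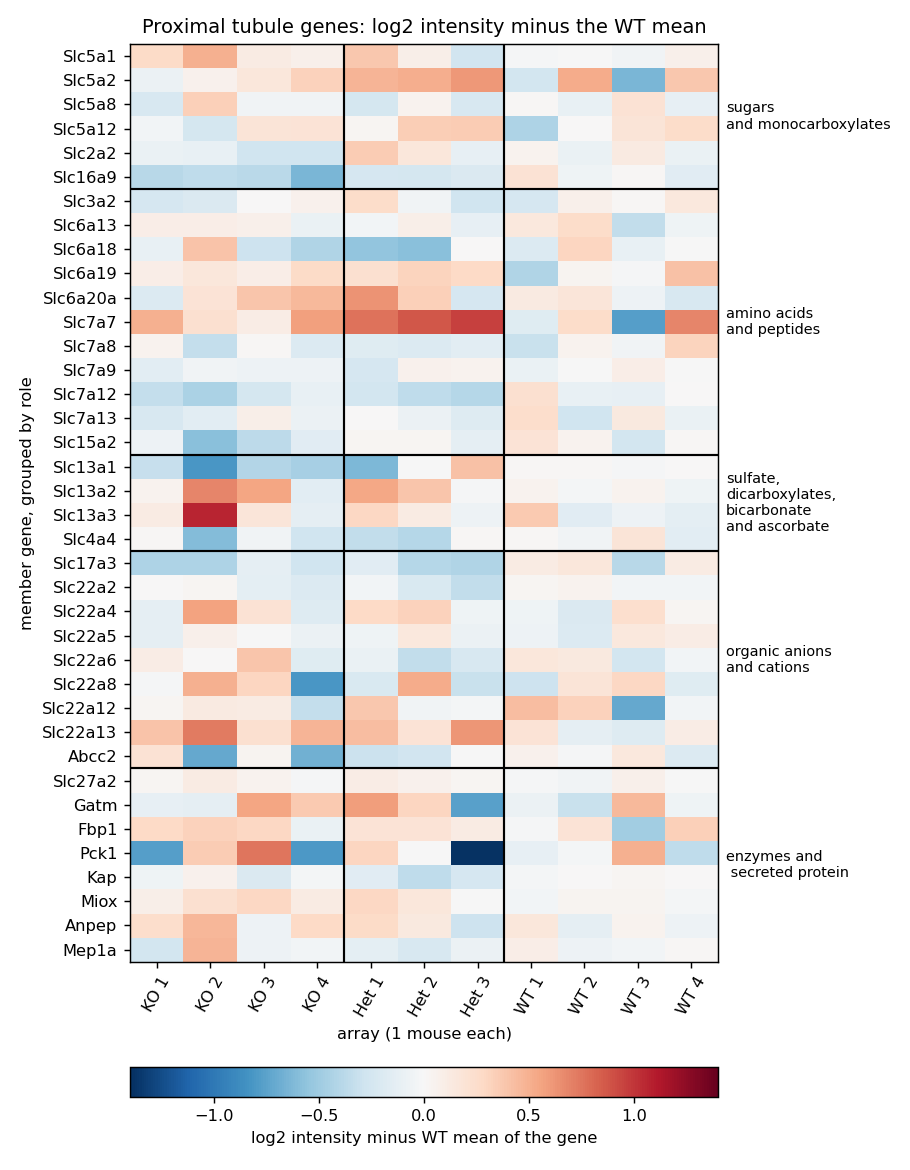
Log2 intensity minus the gene's WT mean for the 38 member genes (rows, grouped by role) on the 11 arrays (columns, 4 KO, 3 Het and 4 WT). Most cells are pale, and Slc16a9 is below its WT mean on every KO and Het array. The strongest colours are Pck1 on Het 3 and Slc13a3 on KO 2, and Slc7a7 is well above its WT mean on all 3 Het arrays.

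Among the carriers of sugars and monocarboxylates, 6 of 6 were measured and none passed the test, with 4 higher and 2 lower in KO kidneys. Slc16a9 (MCT9), a carrier linked to carnitine and creatine transport, had the lowest adjusted p of all members. It read 11.06, 11.09, 11.07 and 10.81 log2 units in KO kidneys, 11.21, 11.20 and 11.25 in Het kidneys, and 11.65, 11.39, 11.46 and 11.29 in WT kidneys. At this probe every KO array lay below every Het array, and every Het array below every WT array. The KO minus WT difference was -0.44 (SE 0.11, limma adjusted p = 0.190), which does not pass the threshold, and it was -0.44 within each slide. Over the other settings tried the adjusted p went no lower than 0.125. A second Slc16a9 probe gave -0.39 (SE 0.17) for KO minus WT but -0.03 for Het minus WT. It read 5.74, 5.23, 5.54 and 5.53 in KO kidneys, 5.61, 5.75 and 6.25 in Het kidneys, and 6.24, 5.77, 5.66 and 5.92 in WT kidneys. All 3 ranges overlapped there, so the order of the genotypes rests on 1 probe.

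None of the 3 glucose carriers passed the test between KO and WT kidneys. Slc5a2, which takes up glucose in the early tubule, read 9.72, 9.86, 9.96 and 10.13 in KO kidneys, 10.28, 10.31 and 10.41 in Het kidneys, and 9.55, 10.32, 9.16 and 10.18 in WT kidneys. The WT arrays spanned more than the other groups together, and the KO arrays lay inside the WT range. Slc5a1, its counterpart in the late tubule, read 9.56, 9.79, 9.41 and 9.37 in KO kidneys, 9.67, 9.38 and 9.03 in Het kidneys, and 9.28, 9.29, 9.25 and 9.37 in WT kidneys. The lowest KO array and the highest WT array round to the same value, so the separation of these groups is narrow (difference 0.24, SE 0.14, limma adjusted p = 0.491). Slc2a2 (GLUT2), the exit route for glucose, read 11.33, 11.32, 11.14 and 11.14 in KO kidneys, 11.78, 11.58 and 11.31 in Het kidneys, and 11.47, 11.33, 11.55 and 11.33 in WT kidneys, and the ranges overlapped. All 3 of its probes lay lower in KO kidneys, by -0.19, -0.42 and -0.36 log2 units (limma adjusted p = 0.528, 0.266 and 0.287). The -0.42 and the -0.36 had unadjusted limma p of 0.012 and 0.016, where 12.9% of all probes lay under 0.05. The lactate carriers Slc5a8 and Slc5a12 differed between KO and WT kidneys by 0.01 and 0.02.

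Of 11 measured carriers of amino acids and peptides none passed the test, with 4 higher and 7 lower in KO kidneys. Slc7a7 (y+LAT1), which with Slc3a2 passes cationic amino acids to the blood, read 10.30, 10.02, 9.90 and 10.37 in KO kidneys, 10.56, 10.67 and 10.76 in Het kidneys, and 9.63, 10.06, 9.03 and 10.48 in WT kidneys. WT 3 was the lowest of all, and the KO arrays lay within the WT range. The KO minus WT difference of 0.35 (SE 0.24, limma adjusted p = 0.565) was 0.09 without WT 3 and 0.58 without WT 4. The probes of Slc7a7 disagreed, with KO minus WT differences of 0.35, 0.50 and -0.38. Its partner Slc3a2 differed by -0.09.

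Slc7a12 (Asc-2), a late carrier of small neutral amino acids that is more abundant in the kidneys of female mice, read 11.81, 11.70, 11.89 and 12.03 in KO kidneys, 11.88, 11.78 and 11.74 in Het kidneys, and 12.36, 12.03, 12.02 and 12.14 in WT kidneys. KO 4 alone reached the WT arrays, and every Het array lay below them (KO minus WT -0.28, SE 0.11, limma adjusted p = 0.326). Slc7a9, the cystine carrier of the brush border, read 12.49, 12.59, 12.57 and 12.57 in KO kidneys, 12.41, 12.70 and 12.69 in Het kidneys, and 12.55, 12.64, 12.74 and 12.64 in WT kidneys. The groups overlapped, and its KO minus WT interval was among the narrow ones (-0.30 to 0.13). Slc6a13, a carrier of GABA and taurine, and Abcc2, an efflux pump of the brush border, differed by 0.04 and -0.29 (limma adjusted p = 0.920 and 0.551). The other Abcc2 probe gave 0.04.

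Slc6a19 (B0AT1), the main brush border carrier of neutral amino acids, read 11.72, 11.78, 11.72 and 11.89 in KO kidneys, 11.85, 11.94 and 11.90 in Het kidneys, and 11.20, 11.66, 11.61 and 12.03 in WT kidneys. WT 1 was the lowest array and WT 4 the highest, so both mutant groups lay inside the WT range. Slc6a18, a late glycine carrier, read 10.61, 11.12, 10.43 and 10.30 in KO kidneys, 10.17, 10.13 and 10.72 in Het kidneys, and 10.53, 11.02, 10.61 and 10.71 in WT kidneys, with all ranges overlapping. Slc7a13 read 4.68, 4.76, 4.99 and 4.82 in KO kidneys, 4.91, 4.82 and 4.73 in Het kidneys, and 5.15, 4.63, 5.04 and 4.81 in WT kidneys. These are background readings, and no fold is given for them. Slc15a2 (PEPT2), the late peptide carrier, lies on chromosome 16 as Cldn16 does. Its representative probe differed by -0.30 (SE 0.13, limma adjusted p = 0.374) and its other probe by 0.01. Slc6a20a and Slc7a8, carriers of imino acids and of neutral amino acids, differed by 0.21 and -0.12. The other Slc7a8 probe gave 0.25 (SE 0.13), the opposite sign.

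Among the carriers of sulfate, dicarboxylates and bicarbonate, 4 of 5 listed genes were measured, with 2 higher and 2 lower in KO kidneys and none past the test. Slc13a1 (NaS1), which reclaims filtered sulfate, had the largest KO minus WT difference of all members. It read 8.15, 7.65, 8.06 and 8.00 in KO kidneys, 7.84, 8.46 and 8.88 in Het kidneys, and 8.48, 8.48, 8.45 and 8.47 in WT kidneys. The 4 WT arrays were nearly equal and every KO array lay below them, while the Het arrays spread across both groups. The difference was -0.50 (SE 0.18, limma adjusted p = 0.288), -0.58 within slide 1 and -0.43 within slide 2.

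The carriers of citrate and other dicarboxylates read higher in KO kidneys on average, with overlap. Slc13a3 (NaDC3) read 11.79, 12.74, 11.84 and 11.54 in KO kidneys, 11.96, 11.78 and 11.60 in Het kidneys, and 12.04, 11.51, 11.60 and 11.53 in WT kidneys. KO 2 was far above the rest, and the difference of 0.31 (SE 0.22, limma adjusted p = 0.579) was 0.05 without it. Slc13a2 (NaDC1) differed by 0.28 (SE 0.18), by 0.15 without KO 2 and by 0.43 without KO 4. Slc4a4 (NBCe1), which carries bicarbonate to the blood, read 13.07, 12.44, 13 and 12.77 in KO kidneys, 12.71, 12.65 and 13.07 in Het kidneys, and 13.07, 13, 13.23 and 12.90 in WT kidneys. KO 2 was again the extreme array, and the 3 Slc4a4 probes differed by -0.23, -0.37 and -0.15. KO 2 also stood apart from the other arrays over all tested probes, at 40.7 on the first principal component where the other arrays ran between -19.1 and 13.6.

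**Figure D3:**
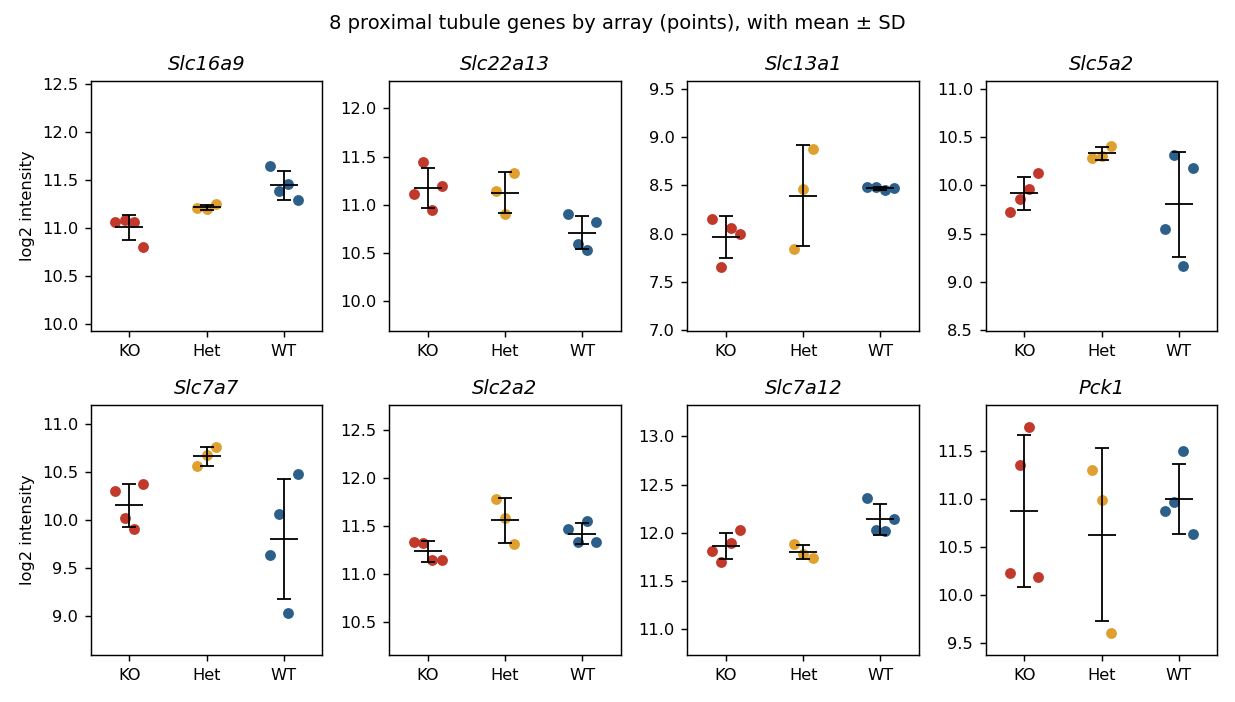
Log2 intensity of 8 member genes on each array (points) in KO, Het and WT kidneys, with the mean and SD of each group, every panel spanning at least 2.6 log2 units. At its representative probe Slc16a9 falls into separate KO, Het and WT ranges, while Slc7a7 and Slc5a2 vary most among the WT arrays and Pck1 among the KO and Het arrays.

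Of 9 measured carriers of organic anions and cations, 3 were higher and 6 lower in KO kidneys, and none passed the test. Slc22a13 (OAT10), a carrier of nicotinate and urate, read 11.11, 11.44, 10.94 and 11.19 in KO kidneys, 11.14, 10.90 and 11.33 in Het kidneys, and 10.90, 10.59, 10.53 and 10.82 in WT kidneys. Every KO array lay above every WT array. The difference was 0.46 (SE 0.14, limma adjusted p = 0.219), 0.53 within slide 1 and 0.39 within slide 2. A second Slc22a13 probe, also detected on every array, gave -0.07 (SE 0.13), so the higher reading rests on 1 probe.

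Slc17a3 (NPT4), a urate and organic anion carrier, read 11.21, 11.20, 11.51 and 11.36 in KO kidneys, 11.48, 11.24 and 11.22 in Het kidneys, and 11.75, 11.80, 11.25 and 11.75 in WT kidneys. WT 3 lay with the mutant arrays, and the other WT arrays lay above them all. The KO minus WT difference of -0.32 (SE 0.14, limma adjusted p = 0.359) was -0.57 within slide 1 and -0.06 within slide 2, which holds WT 3, and its other probes gave 0.04 and -0.04. Slc22a6 (OAT1), the main basolateral anion exchanger, read 12.53, 12.43, 12.81 and 12.26 in KO kidneys, 12.33, 12.08 and 12.20 in Het kidneys, and 12.59, 12.56, 12.17 and 12.39 in WT kidneys. Slc22a8 (OAT3) read 8.69, 9.20, 9.0 and 7.89 in KO kidneys, 8.49, 9.22 and 8.39 in Het kidneys, and 8.41, 8.88, 8.99 and 8.53 in WT kidneys. The KO and WT ranges of both anion exchangers overlapped, with differences of 0.08 and -0.01. KO 4 was the lowest array for Slc22a6 and Slc22a8 among the KO arrays. The urate exchanger Slc22a12, the cation carriers Slc22a2 and Slc22a4 and the carnitine carrier Slc22a5 differed by -0.02, -0.07, 0.12 and -0.04. Further Slc22a5 probes gave 0.28 and -0.16.

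Of 8 measured enzymes and other proximal products, 6 were higher and 2 lower in KO kidneys, and none passed the test. Pck1, the cytosolic enzyme that commits oxaloacetate to gluconeogenesis, read 10.23, 11.35, 11.75 and 10.19 in KO kidneys, 11.30, 10.99 and 9.61 in Het kidneys, and 10.88, 10.97, 11.50 and 10.64 in WT kidneys. Its within-genotype SD of 0.70 was the largest of the members and above that of 98.8% of all probes, and the second Pck1 probe was lowest on Het 3, KO 4 and WT 4. The low arrays KO 1, KO 4 and Het 3 were the same that stood highest in adipose markers. Of 10 adipose markers 6 were measured (Retn, Cfd, Fabp4 and Elovl3 were not), and their mean over the WT level was 1.81, -0.05, 0.23 and 1.5 in KO kidneys, -1.13, -0.60 and 1.72 in Het kidneys, and 0.05, 0.27, 0.34 and -0.66 in WT kidneys. Without those 3 arrays the KO minus WT difference of Pck1 was 0.55 in place of -0.12. The part of adipose tissue in these readings was not tested.

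Kap, the androgen-regulated kidney protein of the mouse, read 14.72, 14.84, 14.57 and 14.75 in KO kidneys, 14.62, 14.42 and 14.54 in Het kidneys, and 14.75, 14.78, 14.80 and 14.78 in WT kidneys. The WT arrays were close together and the Het arrays lay below them, while KO arrays lay on either side. Miox, the enzyme that opens inositol, lay higher in KO kidneys without overlap (0.17, SE 0.10, limma adjusted p = 0.482). The brush border peptidases Anpep and Mep1a differed by 0.23 and 0.03, the gluconeogenic Fbp1 by 0.20 and the creatine pathway enzyme Gatm by 0.17. The fatty acid carrier and ligase Slc27a2 differed by 0.04, and by 0.25 (SE 0.12) at its other probe.

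In Het kidneys no member passed the test against WT kidneys, and none of all probes did (0%). At an unadjusted p under 0.05 there were 6 members, 3 higher (all probes 3.69%) and 3 lower (all probes 3.06%), which is 15.8% of the members against 6.75% of all probes. The groups did not overlap in 6 members (15.8%), against 6.72% of all probes: Slc7a7 and Slc22a13 lay higher (all probes 3.35%) and Slc7a12, Slc16a9, Kap and Mep1a lower in Het kidneys (all probes 3.37%). At the probe that describes each gene, the largest difference was Slc7a7 (0.86, SE 0.26, limma adjusted p = 0.661), then Slc5a2 (0.53), Slc22a13 (0.41) and Slc6a18 (-0.38). The other Slc7a8 probe gave 0.42 (SE 0.14), against -0.17 at its brightest probe. The value of Slc7a7 was 0.60 without WT 3, and its 3 probes gave 0.86, 0.80 and -0.45. Slc5a2 gave 0.32 without WT 3. The second Slc22a13 probe gave 0.12, and Slc6a18 gave -0.62 within slide 1 and 0.06 within slide 2. The median over members was -0.01, and the 95% intervals of 35 members lay inside 1 log2 unit, those of Slc5a2, Slc7a7 and Pck1 reaching beyond. The KO and Het comparisons share the 4 WT arrays.

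Between KO and Het kidneys no member passed the test and none of all probes did (0%). At an unadjusted p under 0.05 there were 2 members, Slc2a2 and Slc13a1, both lower in KO kidneys, or 5.26% against 5.43% of all probes (2.78% higher, 2.65% lower). The groups did not overlap in Slc5a2, Slc7a7 and Slc16a9 (7.89%, against 6.19% of all probes), each lower in KO kidneys (all probes 3.01% lower, 3.18% higher). At the probe that describes each gene, the largest differences were Slc7a7 (-0.51), Slc13a1 (-0.43), Slc5a2 (-0.41) and Slc2a2 (-0.32), with limma adjusted p between 0.889 and 0.931. Further Slc4a4 probes gave -0.43 and -0.44, against 0.01 at its brightest probe. Slc13a1 gave -0.18 without Het 3 and -0.71 without Het 1. The 3 probes of Slc2a2 gave -0.32, -0.46 and -0.43, and those of Slc7a7 gave -0.51, -0.30 and 0.07.

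Several members have more than 1 probe, which gives a check on single readings within the same kidneys. Of 17 such genes with 41 probes, all probes of a gene had the same sign in 7 genes for KO minus WT, in 7 for Het minus WT and in 11 for KO minus Het. Slc16a9, Slc2a2 and Slc4a4 kept 1 sign between KO and WT kidneys over all their probes, whereas Slc22a13, Slc7a7, Slc13a3, Slc15a2 and Slc17a3, which had some of the larger differences, did not. Abcc2, Slc22a5, Slc22a6, Slc6a19 and Slc7a8 did not either. The differing Slc13a3 probe lay near background (mean log2 4.74, detection p under 0.01 on 0 arrays). Its brightest probe gave 0.31 and another bright probe 0.26. Probes of 1 gene share the RNA and can bind different transcripts.

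**Figure D4:**
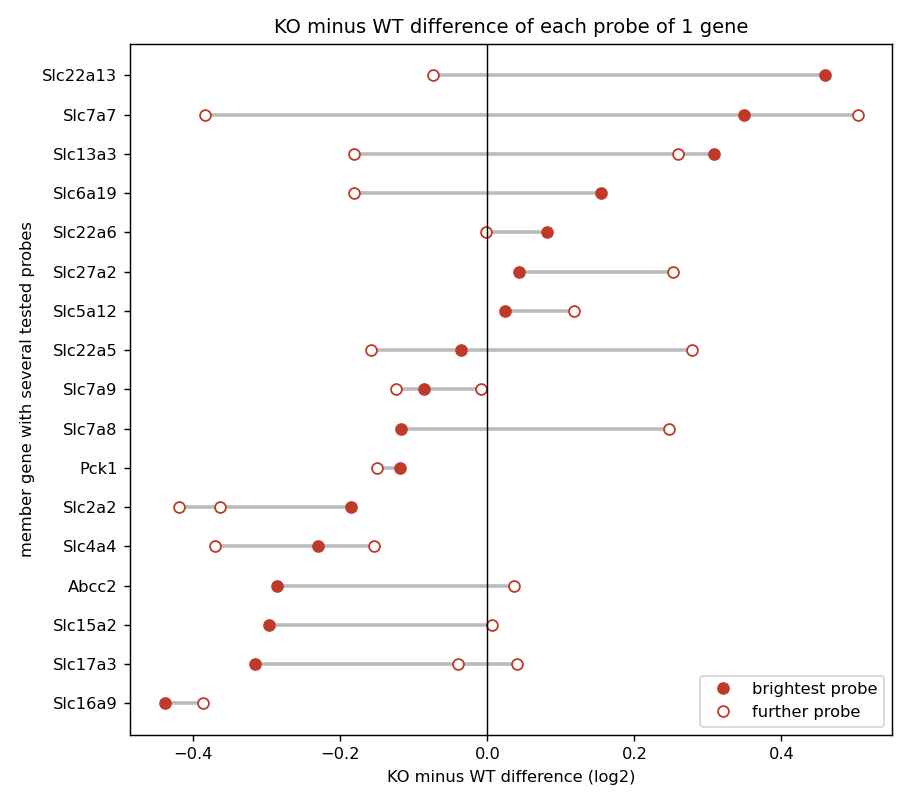
KO minus WT log2 difference of each tested probe for the 17 member genes with several probes, the representative (brightest) probe filled and further probes open, joined by a grey line. The line crosses 0 in 10 genes and stays on 1 side in 7, among them Slc16a9 and Slc2a2 below 0. In Slc13a3 the probe below 0 lay near background.

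Early and late proximal genes were then set side by side. All 12 listed early genes and 8 of 11 late genes were measured, and the score of an array is the mean over the genes of the log2 intensity minus the WT mean of the gene. The early score was 0.03, -0.03, 0.12 and -0.03 in KO kidneys, 0.15, 0.18 and 0.06 in Het kidneys, and -0.12, 0.09, -0.09 and 0.12 in WT kidneys. The late score was -0.09, 0.05, -0.11 and -0.11 in KO kidneys, -0.06, -0.12 and -0.10 in Het kidneys, and 0.11, -0.04, -0.04 and -0.02 in WT kidneys. All Het arrays and 3 of 4 KO arrays lay below the lowest WT array in the late score, KO 2 being the exception. The separation was narrow, with the highest Het array at -0.058 and the lowest WT array at -0.043. Of the 8 late genes, 3 were higher and 5 lower in KO kidneys, and 2 higher and 6 lower in Het kidneys. The late score includes the background readings of Slc7a13.

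Late minus early, the score averaged -0.08 ± 0.13 in KO kidneys (SD, n = 4), -0.22 ± 0.07 in Het kidneys (SD, n = 3) and 0.00 ± 0.17 in WT kidneys (SD, n = 4). The Het arrays at -0.20, -0.29 and -0.16 lay just below the lowest WT array at -0.15, and the KO arrays, between -0.24 and 0.09, overlapped the WT range of -0.15 to 0.22. The score over all 38 members was -0.05, 0.07, 0.06 and -0.09 in KO kidneys, 0.08, 0.04 and -0.08 in Het kidneys, and 0.00, 0.02, -0.04 and 0.02 in WT kidneys. The KO and Het arrays lay on either side of the WT arrays. Without KO 1, KO 4 and Het 3, the KO minus WT value of this score was 0.07 in place of -0.00. No p is given for these scores.

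**Figure D5:**
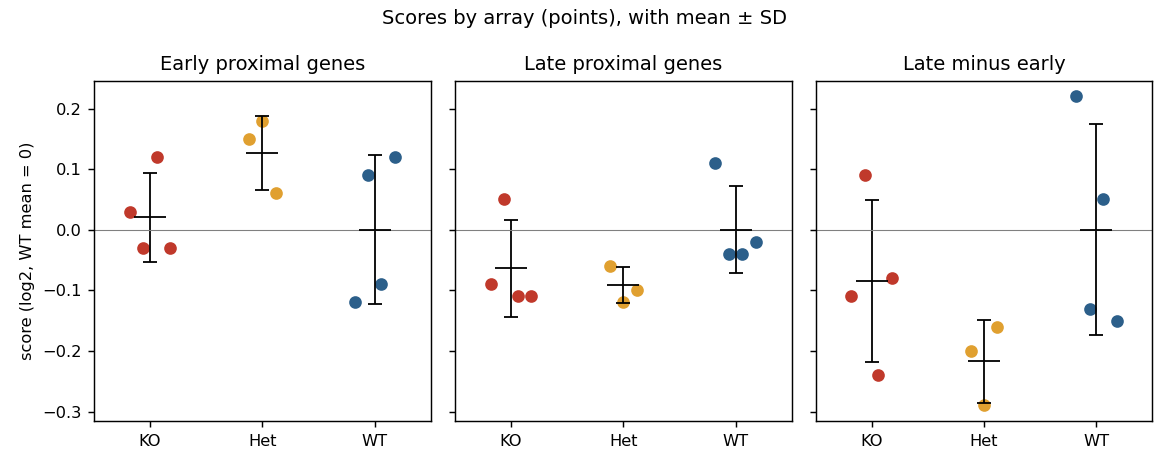
Early, late and late minus early scores (mean log2 deviation from WT, vertical axis) of each array (points) in KO, Het and WT kidneys, with group mean and SD. The KO and WT arrays overlap in all 3 panels, and the Het arrays lie below the WT arrays in the late and the late minus early panels.

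The median variation between mice was alike in these genes and over all probes, while single members lay near both ends. Probes matched to the members for brightness were not compared. The median within-genotype SD was 0.20 over the members and 0.20 over all probes tested. After Pck1 the most variable members were Gatm (0.46), Slc22a8 (0.45), Slc7a7 (0.41), Slc13a3 (0.37), Slc22a12 (0.36) and Slc5a2 (0.35). Slc5a2, the lowest of these, was at percentile 92.6 of all probes. The least variable were Kap (0.09) and Slc27a2 (0.05), at percentiles 2.41 and 0.123. Both were also the brightest members (mean log2 14.69 and 14.68), and the part of brightness in the spread was not tested. WT 3 lay more than 0.5 log2 units from its group mean in Slc5a2, Slc7a7, Slc22a12 and Pck1, the most members of any array.

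Of 69 further listed proximal genes 55 were measured, none passed the test between KO and WT kidneys, and 6 were higher and 4 lower at an unadjusted p under 0.05 (18.2%, against 12.9% of all probes). Their median difference was 0.02. The endocytic receptors and adaptor Lrp2, Cubn and Dab2 differed by 0.05, 0.02 and -0.08, and the transcription factors Ppara, Hnf4a and Maf by -0.30, -0.12 and -0.06. Among brush border genes the peptidase Xpnpep2 differed by -0.59 (limma adjusted p = 0.168), the actin bundler Vil1 by -0.58 and the dipeptidase Dpep1 by 0.39. Among genes of sodium, phosphate, water and acid, the phosphate carrier Slc34a3 differed by -0.37, the carbonic anhydrase Car14 by 0.34 and the water channel Aqp1 by 0.26. Among other carriers the glutamine carrier Slc38a3 differed by -0.49, Slc22a30, of the organic anion carrier family, by -0.37 and the efflux pump Abcc4 by 0.29.

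Genes that differ between male and female mouse kidneys include members, so they were counted as well. Of 11 male-biased genes 10 were measured, 5 higher and 5 lower in KO kidneys and none past the test. The largest was Cyp4a12a, a fatty acid hydroxylase, at 8.67, 8.21, 8.98 and 8.77 in KO kidneys, 7.19, 7.27 and 7.77 in Het kidneys, and 7.08, 6.80, 7.97 and 7.21 in WT kidneys. All KO arrays lay above all WT arrays, with a difference of 1.39 (limma adjusted p = 0.0773). Of 4 female-biased genes 3 were measured, and their KO minus WT differences ran between -0.28 in Slc7a12 and 0.27 in Abcc3. Markers of later segments were read on the same arrays: the mean of 4 distal convoluted tubule markers over the WT level was 0.35 to 0.58 in KO kidneys, -0.14 to 0.25 in Het kidneys and -0.12 to 0.12 in WT kidneys. That of 7 collecting duct principal cell markers was 0.17 to 0.81 in KO kidneys, -0.14 to 0.29 in Het kidneys and -0.19 to 0.39 in WT kidneys. All 4 distal convoluted tubule markers and 6 of the 7 principal cell markers were higher in KO than in WT kidneys. The thick ascending limb mean (5 markers) was -0.09 to 0.17 in KO, -0.08 to 0.09 in Het and -0.05 to 0.05 in WT kidneys. The intercalated cell mean (4 markers) was -0.13 to 0.30 in KO, 0.01 to 0.21 in Het and -0.14 to 0.10 in WT kidneys. None of the markers in these lists passed the test between KO and WT kidneys, and their part in the proximal values was not tested.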

How the data were processed

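Kidney RNA of 11 mice was measured on 1 Illumina array each. Per the file headers, the deposited table pairs a linear intensity with a detection p-value at 45281 probes. BeadStudio is named, without version, in the submitters' processing notes, and whether background was subtracted is not stated. Array medians of the intensity ran from 70.3 to 76.6, and between 18854 and 19742 probes were detected (p under 0.01). The number of arrays limits the precision. A second deposited table of processed intensities (medians 73.6 or 73.7) served as an alternative; its normalization is not stated.

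Intensities were background-corrected with normexp from the detection p-values (offset 16), quantile normalized and log2 transformed (limma 3.58.1, R 4.3.3; the deposited values themselves are not log2). Testing covered the 22856 probes that reached detection (p under 0.05) on 3 or more arrays, in 1 limma model of all 11 arrays with a mean per genotype (lmFit, eBayes, prior degrees of freedom 5.18). Two-sided p-values were adjusted with Benjamini-Hochberg across every tested probe (threshold 0.05). SE is the moderated standard error of a log2 difference; 1 unit is a 2-fold change, and the offset shrinks those of dim probes. Levels of different probes were not compared.

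Groups came from the genotype label; replicate numbers only name a mouse. Slides, read from the array positions in the labels, held 2 KO, 2 Het and 2 WT (slide 1) and 2 KO, 1 Het and 2 WT (slide 2). The mice were at postnatal day 59 (1 KO, 1 Het, 2 WT) or 58 (7 mice). Slide, day, normalization, filter, probe choice and left-out arrays were varied. Values of every array are given for the 6, 4 and 4 members with the largest KO vs WT, Het vs WT and KO vs Het differences and for 15 defining genes, of which 12 were measured; other genes come from lists of proximal genes and markers, with at most 3 per proximal list, those of largest KO vs WT difference. Members, lists and this rule were chosen with earlier results of these data known. Probes were named through the platform annotation, where no member symbol needed updating. The fit was tested on simulated data. Figures were drawn with matplotlib.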

Additional observations from a re-analysis of the deposited data

Results flagged for a closer look

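In groups of 4 arrays, a reading counts as far out when its gap to the nearest of the others takes a share of the group's range above Dixon's 95% critical value, which chance gives in about 1 of 20 groups. Of 84 groups examined over the members and their scores, 7 held such an array. KO 4 was low among the KO arrays in 3 members: Slc6a13, a carrier of GABA and taurine, at 11.85 (others 12.01 to 12.04), Slc16a9 at 10.81 (others 11.06 to 11.09) and Fbp1 at 12.14 (others 12.51 to 12.55). Among the WT arrays, WT 1 was high in Slc13a3 at 12.04 (others 11.51 to 11.60) and WT 3 was low in Slc17a3 at 11.25 (others 11.75 to 11.80). The late proximal score was high in KO 2 at 0.05 (other KO arrays -0.11 to -0.09) and in WT 1 at 0.11 (other WT arrays -0.04 to -0.02).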

How the results depend on the processing

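No member was called in any of the 3 comparisons under any of 25 alternatives each (other background correction, offset, normalization, filter, slide, day, array weights, samples, deposited processed values, probe choice and each array left out), whereas the probes called over the whole array in KO vs WT, 9 in the main setting, ranged between 0 and 15. The median KO minus WT difference over members, 0.00, was 0.074 with a median shift per array, which moved the median of all probes to 0.11, and 0.10 without the 3 arrays high in adipose markers. Leaving out 1 array gave -0.06 to 0.05. With the median shift 25 members lay higher and 13 lower in KO kidneys, against 19 and 19. The Het minus WT median, -0.01, was 0.10 with the median shift (all probes 0.10), 0.10 within slide 1 and 0.094 without the 3 arrays. Leaving out 1 array gave -0.074 to 0.094. The KO minus Het median, 0.00, was -0.069 within slide 1. The score over all members, KO minus WT, was 0.076 with the median shift and 0.065 without the 3 arrays, and -0.03 to 0.03 with 1 array left out; the late minus early score kept its sign, between -0.14 and -0.01. Sign changes between KO and WT kidneys were listed only for the 6 members of largest difference and the defining genes. Among these, small differences turned sign within slide 1 for Slc5a2 (-0.14), Slc22a6 (-0.095), Slc22a8 (0.31) and Kap (0.016). Slc6a19 turned within slide 2 (-0.015) and with the mean of all probes (-0.014). Other members turned as well, among them Slc6a13 (-0.11), Slc6a18 (0.089), Slc6a20a (-0.15) and Slc22a5 (0.097) within slide 1. Within slide 2 they included Slc22a4 (-0.11) and Slc22a12 (0.27). Slc22a8 also turned with no background correction (0.0011), cyclic loess (0.0026), the median shift (0.18), the authors' processed values (0.0011) and without the 3 arrays (0.40), and Pck1 without the 3 arrays (0.55). Slc6a18 in Het kidneys turned within slide 2 (0.064). With 1 array left out, Slc5a2 ranged from -0.10 to 0.29, Slc22a6 from -0.020 to 0.16, Slc22a8 from -0.17 to 0.26 and Pck1 from -0.41 to 0.11. Apart from the alternatives' own construction, the cause was not tested. No paired analysis was possible because replicate numbers were given in accession order and pair no mice. With 3 or 4 mice per group, differences under about 0.30 log2 units lie inside the median interval, and probes near background give no usable difference.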

Other observations

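Dao and Havcr1 varied far more between mice than any member. Dao, which degrades D-amino acids, read 10.94, 10.70, 10.81 and 4.91 log2 units in KO kidneys, 10.89, 11.10 and 4.60 in Het kidneys, and 4.97, 4.95, 10.73 and 10.60 in WT kidneys. The arrays fell into a high and a low set with no value between, and each genotype held both. Akr1c21, a hydroxysteroid dehydrogenase, read 5.80, 7.53, 8.26 and 7.48 in KO kidneys, 8.88, 8.35 and 7.77 in Het kidneys, and 8.14, 9.05, 9.29 and 8.26 in WT kidneys (KO minus WT -1.42, limma adjusted p = 0.229). Hpd, a tyrosine-degrading enzyme, read 10.28, 10.78, 9.75 and 9.71 in KO kidneys, 9.44, 10.89 and 10.61 in Het kidneys, and 8.50, 9.44, 10.31 and 8.78 in WT kidneys.

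Havcr1, a marker of tubule injury named here after its values were seen, also fell into 2 sets: 10.34, 10.55, 10.10 and 5.63 in KO kidneys, 5.64, 9.67 and 11 in Het kidneys, and 10.46, 11.06, 5.73 and 11.81 in WT kidneys. Its low arrays were KO 4, Het 1 and WT 3, and those of Dao were KO 4, Het 3, WT 1 and WT 2, so that KO 4 alone was low in both. Of 6 listed markers of injured proximal tubule 5 were measured, and none passed the test between KO and WT kidneys. Lcn2, a secreted lipocalin, read 6.85, 6.47, 6.00 and 7.04 in KO kidneys, 6.81, 7.15 and 6.18 in Het kidneys, and 7.31, 7.95, 7.20 and 7.38 in WT kidneys. Every KO and Het array lay below every WT array (KO minus WT -0.87, limma adjusted p = 0.211; Het minus WT -0.75, limma adjusted p = 0.693). The adhesion molecule Vcam1 differed between KO and WT kidneys by -0.47, the filament proteins Krt20 and Vim by 0.26 and 0.19. The part of the mixed background in these readings was not tested.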
